A study of Homo sapiens with 28 samples.

Results

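H3K4me1 was compared between S phase and G2/M in human embryonic stem cells that carry Fucci reporters, fluorescent tags that build up and are degraded at set points of the cycle. The members were the peaks in the lists of the 2 H3K4me1 ChIP-seq libraries labelled AzL, the S-phase fraction, and AzH, the G2/M fraction, out of 28 samples. The S list held 6280 peaks and the G2/M list 6156, together 12436 of the 317841 peaks in the 16 lists of the series. The other samples were ChIP libraries for H3K4me1 in early and late G1 and for H3K4me3, H3K27ac and H3K27me3 in all 4 phases, 4 inputs and 8 4C libraries. All fractions came from 1 reporter line of undifferentiated cells, cultured without serum or feeders in a defined medium with heregulin, activin, an IGF-1 analogue and FGF2, so the reporters and the medium were common to both groups. Each mark and phase had 1 library. There was therefore no replicate error and no test between phases, and the exact Clopper-Pearson 95% intervals below cover counting error over peaks only.

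Monomethylation of lysine 4 of histone H3 is placed mainly by the methyltransferases KMT2C and KMT2D and is known for marking enhancers, the distal elements that raise transcription from promoters. It also lies on the flanks of active promoters, whose centres carry the trimethylated form, H3K4me3. Enhancers with H3K4me1 alone are called primed, those that also carry H3K27ac are called active, and those with the Polycomb mark H3K27me3 are called poised. Enhancer marking has to pass through replication in S phase and condensation in mitosis, and the S and G2/M fractions lie within that passage.

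The peaks were short, with a median width of 125 bp in both phases. Together they covered 946.95 kb in S and 905.8 kb in G2/M. The deposited height, the authors' value for the summit of a peak, had a 5th percentile of 13.3, a median of 15.6 and a 95th percentile of 21.3 in S. In G2/M these were 12.1, 14.0 and 19.6. Heights are not set against each other between libraries, since how they were scaled is not stated in the labels or file headers, and the number of reads behind each list is unknown. Most peaks lay away from H3K4me3: 81.8% of S peaks and 85.1% of G2/M peaks were over 2.5 kb from an H3K4me3 peak of any phase. Peaks close to H3K4me3 were still more frequent than for places taken anywhere on the chromosome, as given below. No H3K4me3, H3K27ac or H3K27me3 peak of the same phase overlapped 79.9% of S peaks and 77.8% of G2/M peaks.

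About 1 peak in 6 was shared between the phases. In S, 1036 of 6280 peaks (16.5%, interval 15.6 to 17.4) overlapped a G2/M peak by at least 1 bp. In G2/M, 1030 of 6156 (16.7%, 15.8 to 17.7) overlapped an S peak. A peak of the same length placed anywhere on its chromosome would overlap the other list in 0.0636% of cases for S and 0.0649% for G2/M, so sharing was 259.5 and 257.8 times this baseline. With edges within 1 kb counted as a match, 1800 S peaks (28.7%) and 1777 G2/M peaks (28.9%) had a partner, 63.3 and 62.7 times the baselines of 0.453% and 0.460%. Most peaks in each list, 4480 in S (71.3%) and 4379 in G2/M (71.1%), had none within 1 kb and are called single-phase below. Joined into 11382 places, 1012 (8.89%) were listed in both phases.

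The excess was local but not confined to the exact position. Moving every S peak by 10 kb either way left 0.358% overlapping the G2/M list, by 100 kb 0.119% and by 1000 kb 0.0557%. The overlap 10 kb away was thus above the whole-chromosome baseline and 46.0 times lower than that in place. Among the 764 S peaks with a G2/M peak within 1 kb but no overlap, 161 had a gap of at most 100 bp and 43 a gap of 900 to 1000 bp. The 747 such G2/M peaks had 166 and 44 in the same classes.

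**Figure D1:**
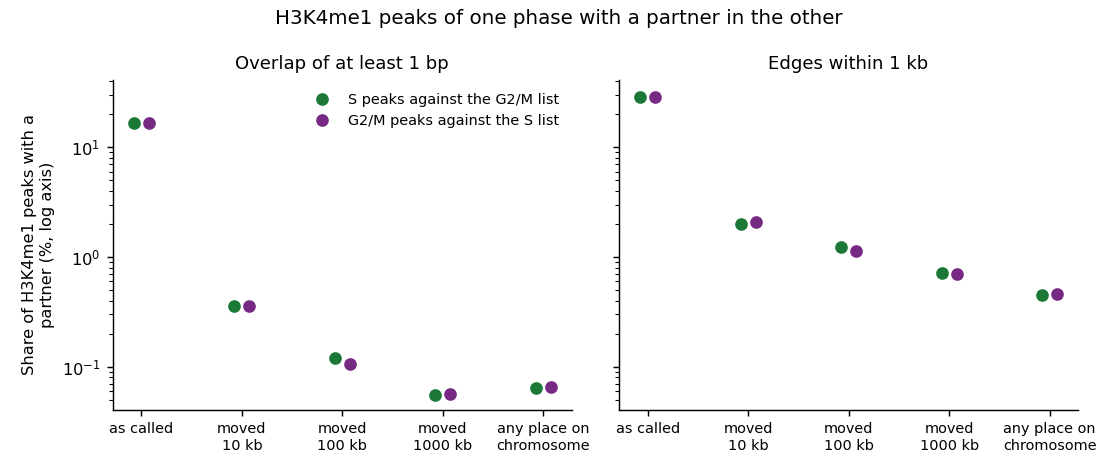
Share of S (green) and G2/M (purple) H3K4me1 peaks with a partner in the other list, on a log axis in percent, for peaks as called, moved by a fixed distance (mean of both directions), and placed anywhere on the chromosome. Left, overlap of at least 1 bp; right, edges within 1 kb; bars on the called peaks are exact 95% intervals. The called shares, 16.5% and 16.7% at left, lie above all moved and baseline values, and the moved shares are highest at 10 kb.

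Where peaks were shared, their summits lay close together, as overlap between short peaks largely requires. The distance expected for overlapping peaks of these widths was not computed. The maxima of an S peak and its G2/M partner lay a median of 54 bp apart (quartiles 22 and 101 bp), and the median overlap was 100 bp. In 85.9% of pairs the overlap covered at least 50% of the shorter peak. Neither phase had the consistently wider peak: the S peak was wider in 440 pairs, the G2/M peak in 496, and 100 pairs had equal widths. Over the 995 pairs with both heights, the Spearman correlation of heights was 0.38 and that of widths 0.18, given as a description of pairs that share their position and its base composition.

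H3K4me1 had the lowest sharing of the marks at equal list length. With the 6000 best-scored peaks of each list, 16.7% of S H3K4me1 peaks met a G2/M peak and 16.6% the reverse. The corresponding shares were 59.9% and 54.0% for H3K27ac, 83.3% and 84.7% for H3K4me3, and 90.5% and 71.4% for H3K27me3. Those peaks were also wider, with medians of 250 and 425 bp for H3K27ac and over 1000 bp for the other marks, against 125 bp for H3K4me1 in both phases. The 6000 peaks were also different portions of the lists: 95.5% and 97.5% of the S and G2/M H3K4me1 lists, 58.4% and 30.7% for H3K27ac, 23.1% and 20.9% for H3K4me3, and 30.0% and 22.7% for H3K27me3. With the whole lists, which differ in length, the lowest share of another mark was 34.6%, that of G2/M H3K27ac peaks meeting S H3K27ac. The parts that width and the portion of the list play in these shares were not tested.

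Shared peaks were wider and slightly taller than single-phase peaks. In S the mean width was 197 bp for shared peaks and 141 bp for single-phase peaks, a ratio of 1.40. In G2/M it was 204 and 134 bp, a ratio of 1.52. Peaks of at least 200 bp made up 41.6% of shared and 19.2% of single-phase peaks in S, and 46.7% and 15.1% in G2/M. The median height was 16.5 against 15.5 in S (ratio 1.07) and 15.5 against 13.8 in G2/M (ratio 1.12). The class distributions overlapped broadly: 5% of the shared S peaks lay below 13.5, and 5% of the single-phase S peaks above 20.7. Peaks with a partner within 1 kb but no overlap were close to single-phase peaks on both counts, with mean widths of 145 and 146 bp and median heights of 15.1 and 14.0. A wider peak also has more positions at which 1 bp of overlap can occur. The baseline above allows for length in the sharing of whole lists, and the width ratios were not adjusted for it.

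Sharing was highest among the tallest peaks. When each list was cut into 10 bins by height, 10.1% (7.84 to 12.8) of the lowest S bin and 33.9% of the highest were shared. In G2/M the lowest bin shared 8.49% and the highest 47.7%. Mean width rose as well, from 88.1 to 271 bp in S and from 87.4 to 284 bp in G2/M. With edges within 1 kb, the lowest and highest bins had 24.1% and 42.5% in S, and 21.7% and 56.7% in G2/M. Among the 100 best-scored peaks, 52.0% (41.8 to 62.1) were shared in S and 72.0% (62.1 to 80.5) in G2/M, and 33.0% and 37.0% of these overlapped H3K27me3 of S or G2/M. H3K27ac followed the same course: the overlap with H3K27ac of the same phase was 10.1% in the lowest and 25.1% in the highest bin of S, and 13.6% and 43.5% in G2/M. The parts of height and width in these rises were not tested.

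**Figure D2:**
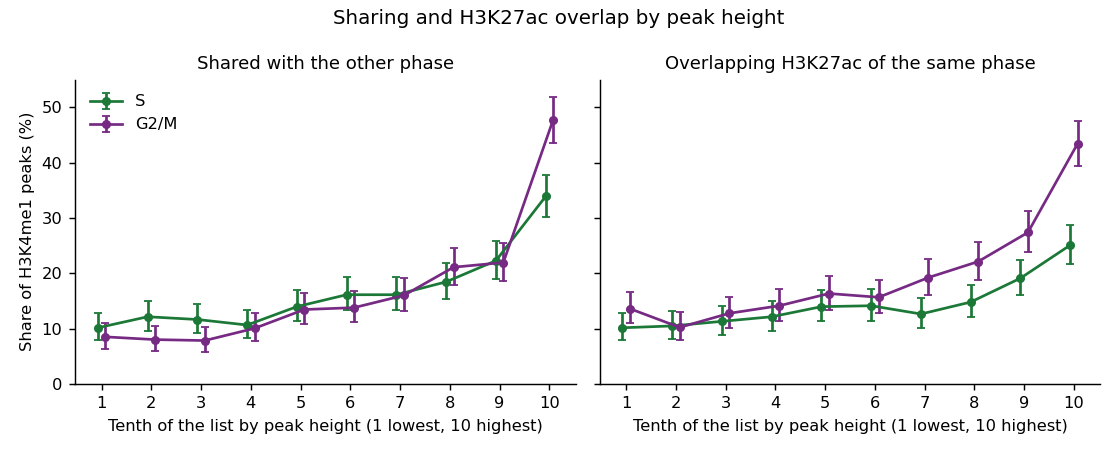
Share of H3K4me1 peaks (percent, with exact 95% intervals) in 10 bins by height, separately for S (green) and G2/M (purple). Left, peaks shared with the other phase, from 10.1% to 33.9% in S and from 8.49% to 47.7% in G2/M; right, peaks overlapping H3K27ac of the same phase. Both shares are highest in the bin of the tallest peaks, which also have the largest mean width.

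Acetylation at the same place was more frequent at shared peaks. H3K27ac is deposited by p300 and CBP at active enhancers and promoters. Of all S peaks 14.5% overlapped an S H3K27ac peak, and of all G2/M peaks 19.9% overlapped a G2/M H3K27ac peak. In S the share was 30.1% (27.3 to 33.0) of shared, 16.6% of within-1-kb and 10.5% (9.65 to 11.5) of single-phase peaks. In G2/M it was 40.5% (37.5 to 43.6), 20.9% and 14.8% (13.8 to 15.9). The order shared, near, single-phase was the same in both phases, and the intervals of shared and single-phase peaks did not overlap. All 3 classes were above the baseline for peaks of their length: shared S peaks 193 times and single-phase S peaks 79.2 times, shared G2/M peaks 125 times and single-phase G2/M peaks 53.5 times.

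The gap between shared and single-phase peaks was present within bins of height. Each list was divided by height into 4 bins. Within the lowest bin of S peaks, 18.1% of shared and 9.34% of single-phase peaks overlapped H3K27ac, and within the highest 43.4% and 11.3%. In G2/M the lowest bin had 27.3% and 10.5%, and the highest 47.6% and 25.1%. The highest bin was broad, from 17.4 to 169 in S and from 15.6 to 289.6 in G2/M, so heights were not matched within it. Over 2.5 kb from H3K4me3 of any phase, 248 of 1036 shared S peaks carried S H3K27ac (23.9% of the class), as did 393 of 4480 single-phase peaks (8.77%). In G2/M these were 314 of 1030 (30.5%) and 531 of 4379 (12.1%).

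The H3K27ac lists differ in length, from 10268 peaks in S to 32521 in late G1, so overlaps were repeated with the 10000 best-scored H3K27ac peaks of each phase. Shared S peaks then met H3K27ac in 11.3% for early G1, 29.1% for late G1, 29.9% for S and 31.0% for G2/M. Shared G2/M peaks gave 10.6%, 29.3%, 30.4% and 30.8% in the same order. The values for the last 3 phases were alike within their intervals, while the early G1 value was lower by a factor of more than 2 in each class of shared peaks. Single-phase S peaks gave 6.12%, 11.8%, 10.5% and 10.1%, and single-phase G2/M peaks 3.68%, 9.39%, 8.52% and 10.1%. Against the same H3K27ac list, single-phase peaks of the matching phase were at most slightly ahead: the whole S list met 10.5% (9.65 to 11.5) of S-only and 8.59% (7.77 to 9.46) of G2/M-only peaks, and the whole G2/M list 14.0% (13.0 to 15.1) and 14.8% (13.8 to 15.9).

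**Figure D3:**
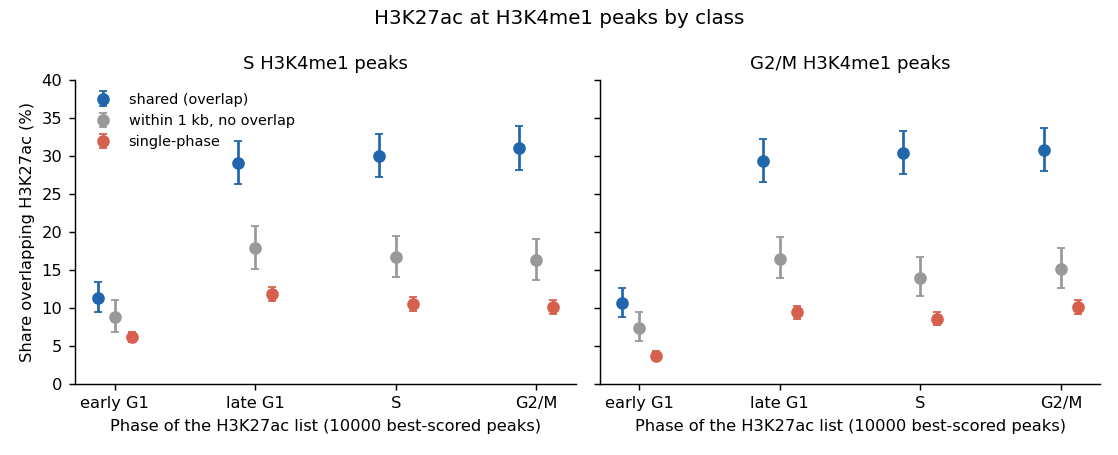
Share of S (left) and G2/M (right) H3K4me1 peaks overlapping the 10000 best-scored H3K27ac peaks of each phase, in percent with exact 95% intervals, by class. Shared peaks (blue) stand near 30% for H3K27ac of S, G2/M and late G1 and near 11% for early G1, above peaks with a partner within 1 kb (grey) and single-phase peaks (red).

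The share found again in G1 was higher for shared than for single-phase peaks. By count the classes were alike: 292 shared and 294 single-phase S peaks overlapped H3K4me1 of G1. In G2/M these were 298 and 299. Of shared S peaks 25.8% (23.1 to 28.6) overlapped a late G1 H3K4me1 peak, against 5.38% (4.74 to 6.08) of single-phase S peaks. For G2/M these were 26.6% and 6.21%. Early G1 H3K4me1, a list of 1878 peaks, met 5.89% of shared and 1.56% of single-phase S peaks, and 5.83% and 0.731% of those in G2/M. H3K27ac of any phase covered 54.9% of shared and 26.1% of single-phase S peaks, and 55.8% and 24.5% in G2/M. Of the 14 lists other than these H3K4me1 lists, none overlapped 63.1% of single-phase S and 67.7% of single-phase G2/M peaks, but 31.9% and 31.0% of shared peaks.

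Peaks of both phases gathered into clusters. Within their own list, 18.1% of S peaks and 17.8% of G2/M peaks had another peak within 1 kb, where baselines of 0.516% and 0.506% were computed. The share was 39.3% for S peaks with a G2/M partner within 1 kb but no overlap, 27.5% for shared and 12.3% for single-phase S peaks. G2/M gave 40.6%, 24.6% and 12.3%. Joining all peaks within 1 kb of each other gave 9703 clusters, of which 485 held at least 3 peaks, and 435 of these (89.7%) had peaks of both phases. More peaks give a cluster more chances to hold both phases. The cluster with the most peaks, chr1:145112526-145117875, had 7 S and 8 G2/M peaks over 5350 bp and overlapped no H3K4me3 peak of any phase.

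H3K4me3 was close to a minority of H3K4me1 peaks, on a distance profile that differed between the classes. Of all S peaks 14.0% lay within 2.5 kb of an S H3K4me3 peak, and of all G2/M peaks 12.8% of a G2/M one, with baselines of 3.1% to 3.8% by class. Shared peaks were most above baseline where they overlapped H3K4me3: 5.69% of shared S peaks did so, 6.66 times baseline, and 7.86% of shared G2/M peaks, 9.73 times. Single-phase peaks were most above baseline beside H3K4me3 rather than on it. In S they overlapped it 3.08 times as often as the baseline, and lay 250 to 500 bp away 6.96 times and 500 to 1000 bp away 6.58 times as often. The same distances in G2/M gave 2.19, 5.73 and 4.70 times. Shared peaks at 250 to 500 bp, 8 in S and 9 in G2/M, stood at 3.04 and 2.87 times baseline, and their intervals overlapped those of single-phase peaks in both phases.

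**Figure D4:**
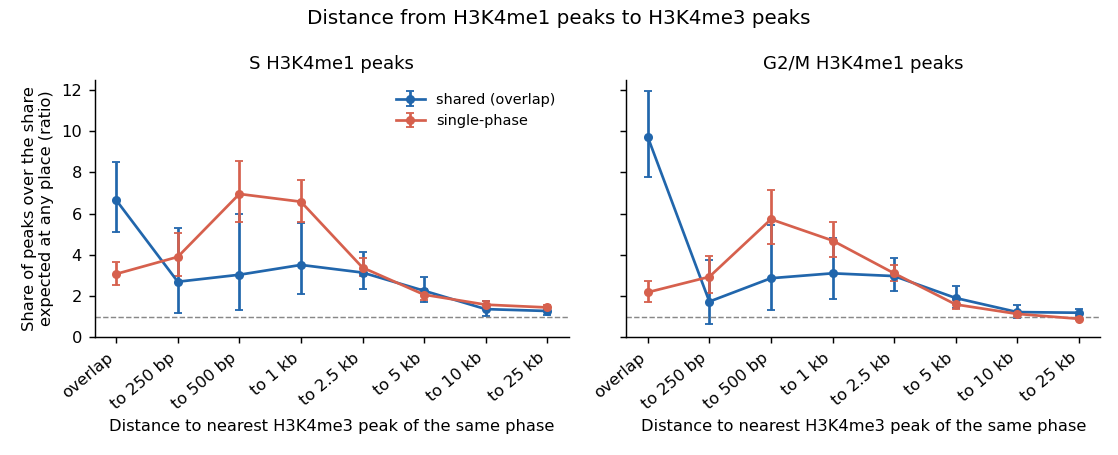
Share of S (left) and G2/M (right) H3K4me1 peaks in each class of distance to the nearest H3K4me3 peak of the same phase, divided by the share expected at any place on the chromosome (dashed line at 1), with exact 95% intervals. Shared peaks (blue) are highest at overlap, 6.66 and 9.73 times, and single-phase peaks (red) at 250 to 500 bp, 6.96 and 5.73 times.

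The H3K4me3 peaks touched by the classes differed in median width and height. The 123 S H3K4me3 peaks overlapped by single-phase S peaks had a median width of 900 bp and a median height of 56.0, above the whole S H3K4me3 list (550 bp and 37.1). The 58 overlapped by shared S peaks had 275 bp and 23.4. In G2/M the 69 overlapped by single-phase peaks had 225 bp and 23.0, and the 82 overlapped by shared peaks 200 bp and 20.7, both below the list's 475 bp and 34.5. By these medians the S-only peaks on H3K4me3, 123 of 4480, met broad, tall H3K4me3 peaks, and the other 3 groups narrow, low ones. A wider H3K4me3 peak is also more likely to be overlapped, and the medians were not adjusted for this. Of the 59 shared S peaks on H3K4me3, 35 also overlapped H3K27me3 (22 without and 13 with H3K27ac). Of the 81 shared G2/M peaks on H3K4me3, 18 overlapped H3K27me3 without H3K27ac and 24 overlapped both. Without places that overlap H3K27me3, the share within 2.5 kb was 10.0% (8.20 to 12.1) for shared and 13.7% (12.6 to 14.7) for single-phase S peaks. In G2/M it was 11.9% (9.89 to 14.1) and 11.4% (10.5 to 12.4). With those places kept it was 13.5% (11.5 to 15.7) and 15.0% (13.9 to 16.03) in S. For G2/M it was then 16.3% (14.1 to 18.7) and 12.4% (11.5 to 13.5). The intervals of shared and single-phase peaks thus overlapped in S with those places kept and in G2/M without them, and were apart otherwise.

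H3K27me3, the Polycomb mark of repressed and poised elements, overlapped 4.32% of all S peaks and 2.5% of all G2/M peaks in the same phase. Single-phase S peaks met it more often than single-phase G2/M peaks in each of the 4 H3K27me3 lists. The S list overlapped 4.33% (3.75 to 4.97) of S-only and 2.31% (1.88 to 2.80) of G2/M-only peaks, and the G2/M list 4.84% (4.23 to 5.51) and 2.03% (1.64 to 2.495). Early G1 gave 4.22% and 1.60%, and late G1 5.47% and 2.74%. Because the same list was used for both classes in each pair, the length of the H3K27me3 list does not enter these differences. The classes also differed in their place on the genome, as given below, and were not matched for it. Shared peaks gave 6.56% in S and 5.53% in G2/M with H3K27me3 of their own phase.

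The S and G2/M peaks were distributed differently along the genome, by the H3K4me3 density of the surroundings. H3K4me3 peaks of the 4 phases were merged, and windows of 1 Mb were grouped by how many merged regions they held, a division chosen after the peaks per chromosome had been seen. In the 767 windows with 0 to 4 H3K4me3 regions there were 870 S and 1331 G2/M H3K4me1 peaks, a ratio of 0.654 (0.599 to 0.712). With 5 to 9 regions the ratio was 0.825, and with 10 to 19 it was 1.03. In windows with 20 to 39 regions there were 976 S and 493 G2/M peaks, a ratio of 1.98 (1.77 to 2.21). In the 98 windows with 40 or more there were 519 and 105, a ratio of 4.94 (4.00 to 6.16). Each class of denser windows thus had relatively more S peaks. Chromosome 19 did not carry this alone, since without it the densest windows had 406 S and 94 G2/M peaks, a ratio of 4.32.

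H3K4me3 went the same way over a smaller range: from the sparsest to the densest windows its ratio of S to G2/M peaks was 0.752, 0.859, 0.891, 0.916 and 1.03, higher in each class. H3K4me3 peaks also define these windows. The ratio for H3K27ac was 0.503 in the sparsest and 0.405 in the densest windows, and that for H3K27me3 0.875 and 0.639. Among the H3K4me1 libraries, windows with 40 or more H3K4me3 regions held 8.26% of the S list, 1.71% of G2/M, 7.40% of early G1 and 2.69% of late G1. The early G1 and S libraries were thus alike in this respect, as were late G1 and G2/M, an order that does not follow the cycle. With 1 library per phase, phase and library cannot be told apart here.

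Sharing went in opposite directions along this gradient. Of S peaks, 17.7% (15.2 to 20.4) were shared in the sparsest windows and 5.01% (3.30 to 7.25) in the densest. Of G2/M peaks, 11.3% (9.69 to 13.2) and 25.7% (17.7 to 35.2) were. The counts of shared peaks themselves were nearly equal, 26 S and 27 G2/M peaks in the densest windows, so the difference lay in the 488 single-phase S peaks there against 74 in G2/M. These S-only peaks were the least acetylated: 1.84% (0.847 to 3.47) overlapped S H3K27ac, against 13.3% (10.7 to 16.4) of S-only peaks in the sparsest windows. They were not low peaks, with a median height of 16.9 against 15.0 in the sparsest windows. Shared S peaks had H3K27ac in 26.9% (11.6 to 47.8) of the densest and 32.5% of the sparsest windows' peaks. Single-phase G2/M peaks had 9.46% (3.89 to 18.5) and 14.5%, with overlapping intervals.

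The nearness of H3K4me3 varied along the same gradient. Within windows of like density S-only peaks were no clear step ahead of shared S peaks: with 10 to 19 H3K4me3 regions, 14.9% of S-only and 14.5% of shared S peaks lay within 2.5 kb of S H3K4me3, and with 20 to 39 regions 19.7% and 27.2%. In the densest windows 33.0% (28.8 to 37.4) of S-only and 52.7% (40.7 to 64.4) of G2/M-only peaks were that close. The densest class holds 26 shared S and 27 shared G2/M peaks, and intervals there are wide.

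**Figure D5:**
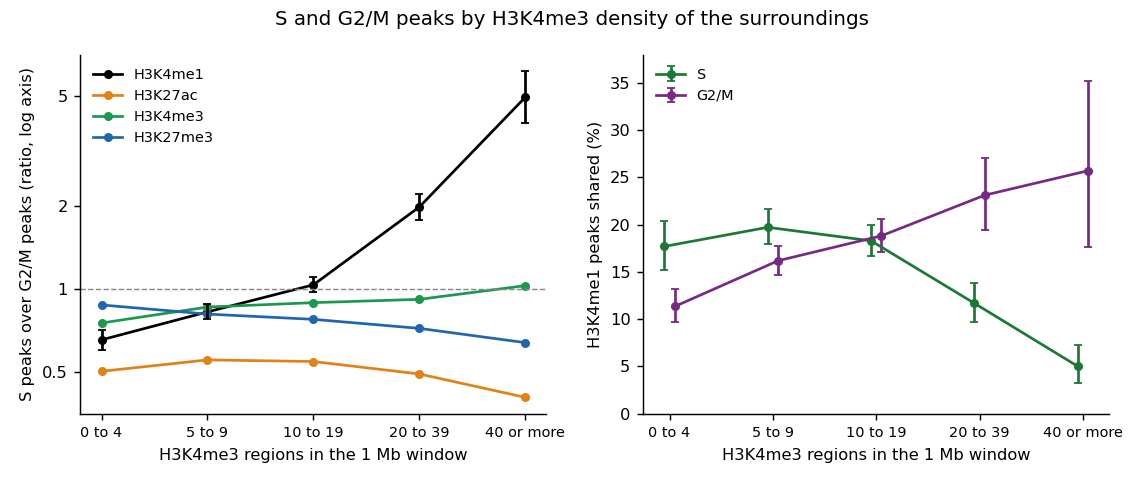
S and G2/M peaks in 1 Mb windows grouped by their number of merged H3K4me3 regions. Left, ratio of S to G2/M peak counts for each mark on a log axis, with exact 95% intervals for H3K4me1 (black), which goes from 0.654 to 4.94 while the other marks stay between 0.405 and 1.03; right, share of S (green) and G2/M (purple) H3K4me1 peaks shared with the other phase, in percent with exact 95% intervals, which cross between the sparsest and densest windows.

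By chromosome the same imbalance was largest on chromosome 19, which is rich in genes. It held 141 S peaks and 22 G2/M peaks, a ratio of 6.41, and 3 of the 141 S peaks (2.13%) were shared. Chromosome 17 followed with 179 and 94 (1.90), chromosome 16 with 159 and 109 (1.46), and chromosomes 20 and 22 had 1.31 each. The lowest ratio, 0.757, was on chromosome 3 with 368 S and 486 G2/M peaks. For H3K4me3 the chromosome 19 ratio was 0.96 and for H3K27ac 0.44. Across 23 chromosomes the Spearman correlation of the ratio with H3K4me3 regions per Mb was 0.66, and 0.61 without chromosome 19, given as a description of 1 library per phase. The same correlation was 0.70 for the H3K4me3 ratio (0.66 without chromosome 19), so its sign is not particular to H3K4me1. It was -0.54 for H3K27ac and -0.59 for H3K27me3. The H3K4me3 ratio ranged from 0.791 to 1.0 over chromosomes and the H3K4me1 ratio from 0.757 to 6.41. On chromosomes 16, 17, 19, 20 and 22, singled out after their values were seen, 9.23% of 704 S peaks and 16.1% of 397 G2/M peaks were shared, against 17.4% and 16.8% elsewhere.

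Chromosome 1 between 120 and 150 Mb, around the centromere and the duplicated segments beside it, had the opposite character. This stretch was not set in advance, and the chromosome 1 windows named below lie within it. It held 124 S and 116 G2/M peaks, of which 46.8% and 49.1% were shared, and 42.7% and 35.3% overlapped H3K27ac of the same phase. The windows of 1 Mb with the most peaks of both phases together were chr1 145 to 146 Mb (40 S and 39 G2/M), chr1 144 to 145 Mb (41 and 32) and chr13 100 to 101 Mb (44 and 19), where the median window with a peak had 4. Without the stretch of chromosome 1, sharing was 15.9% in S and 16.1% in G2/M.

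Single places show these kinds of peak. Heights here and below are listed library by library and, as above, are not set against each other between libraries. The 3 tallest shared places had peaks in most lists, those of marks that exclude each other on 1 lysine included. At chr1:121484176-121485575, beside the centromere, the height was 169 in S and 289.6 in G2/M, and peaks of 13 of the 16 lists lay there, H3K4me3 at 628 and H3K27me3 at 729 in S among them. At chr2:33141101-33141600 the heights were 94.9 and 76.6, with peaks in 14 lists, and at chr19:27738251-27738650 they were 46.9 and 97.4, with peaks in 11 lists. Peaks of H3K27ac and of H3K27me3 in both S and G2/M overlapped all 3 places. Of S peaks with H3K4me3, H3K27ac and H3K27me3 together there were 18, and of G2/M peaks 32.

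The next shared places by height, chr1:214204251-214204525 and chr1:145112526-145113175, overlapped H3K27ac in all 4 phases and H3K4me3 in none. At chr1:214204251-214204525 the H3K4me1 height was 41.3 in S and 50.8 in G2/M, 24.5 in early G1, and no late G1 peak was listed. H3K27ac at this place stood at 59.1 in S, 104.8 in G2/M, 29.3 in early G1 and 61.5 in late G1, and the nearest S H3K4me3 peak was 41.1 kb away. At chr1:145112526-145113175 H3K4me1 was listed in all 4 phases, with heights of 32.7 in S, 37.8 in G2/M, 34.7 in early G1 and 22.6 in late G1. H3K27ac was listed in all 4 as well, at 27.7, 35.3, 49.3 and 58.2 in that order. Chosen for distal position and H3K27ac in both phases, chr2:112221126-112221375 had heights of 24.5 in S and 36.9 in G2/M. Its H3K27ac heights were 39.8 and 73.6. The place chr1:230320926-230321175, chosen by the same rule, had H3K4me1 at 30.3 and 24.7 and H3K27ac at 19.6 and 43.0. Its nearest S H3K4me3 peak was 116 kb away, and it overlapped an S H3K27me3 peak of 14.3. Other shared places lacked S H3K27ac: chr1:54798476-54798725, with 31.0 and 28.2, had H3K27ac in late G1 (30.8) and G2/M (28.3) only, and chr15:74379376-74379650, with 28.5 and 28.1, had it in the same phases (23.8 and 17.01). The place chr1:234362526-234362800 had H3K4me1 at 30.4 in S and 41.8 in G2/M and H3K27ac in G2/M alone, at 17.4. It also overlapped late G1 peaks of H3K4me1 (18.3) and H3K27me3 (18.1).

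Among the widest shared places, chr10:134386451-134388075 was 1625 bp wide in S and 775 bp in G2/M. Its H3K4me1 height was 40.2 in S, 24.2 in G2/M and 37.4 in late G1, and its H3K27ac height 25.1 in S, 44.1 in G2/M and 117.6 in late G1. No early G1 peak of either mark was listed there.

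The tallest single-phase peaks mostly met few other lists, and 3 of the 10 named met none. Among peaks free of H3K27me3, the tallest S-only peak was chr3:195423501-195423800 at 42.7, found in no other list, with a G2/M peak 1.48 kb away. The S-only peak at chr21:47832826-47833325 (36.7) overlapped a late G1 H3K4me3 peak (17.3), and chr7:150707101-150707350 (32.9) overlapped none of the other lists. At chr5:1098126-1098950 an 825 bp S-only peak of 32.8 overlapped late G1 H3K4me1 (23.1) and H3K27ac of late G1 (47.1) and S (13.7). At chr20:35169051-35169350 an S-only peak of 32.8 lay 0.251 kb from S H3K4me3 and overlapped H3K27ac of early G1 alone (36.1). The tallest G2/M-only peak, chr10:52321926-52322250 at 38.2, overlapped late G1 H3K4me1 (14.5) and G2/M H3K27ac (26.0). The G2/M-only peak at chr7:37534001-37534275 (31.0) lay on G2/M H3K4me3 (20.0) and on H3K27ac of late G1 (20.9), S (18.6) and G2/M (23.2). The G2/M-only peaks at chr16:7560401-7560650 (30.3) and chr1:157243801-157244125 (28.9) had no H3K27ac, and the first was in no other list. At chr20:30433751-30434075 a G2/M-only peak of 26.5 overlapped late G1 H3K4me1 (20.1) and late G1 H3K27ac (19.4). Single-phase here means that no peak of the other phase was listed within 1 kb, and signal below the authors' calling threshold was not analysed here.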

How the data were processed

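H3K4me1 peaks of the S and G2/M libraries were compared with each other and with the other 14 peak lists. The submitters' processing notes list Bowtie 0.12.7 and 2 builds, mm9 and hg19, with no role for any of them; positions were read as hg19. Caller settings, input use and read depth were not given in the sources used here. For each library the authors deposited 1 list: a signal column used as peak height (0, as on all chromosomes coded 22 to 24, was treated as missing) and a deposited score column, more negative for taller peaks. Width is the deposited length, and peaks lie on a 25 bp grid.

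Overlap was at least 1 bp and near was edges within 1 kb. Baselines are the expected share when a peak of each length stands at every position of the span covered by peaks on its chromosome, computed without random draws and checked on simulated data. Python 3.11.15, numpy 2.4.6, pandas 2.3.3, scipy 1.17.1 and matplotlib 3.10.9 were used. Places are named by rule: the 5 tallest shared places, also without H3K27me3 and with distal H3K27ac, the 5 tallest single-phase peaks per phase without H3K27me3, the 3 widest shared places and the 3 fullest windows. Without H3K27me3 means no overlap with an H3K27me3 peak of S or G2/M. The members and lists were chosen with earlier results of these data known. No gene annotation of hg19 was used here, so genes are not named. The 8 read-count columns of the 4C table were not used.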

Additional observations from a re-analysis of the deposited data

How the results depend on the processing

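No paired analysis was possible because each mark and phase had 1 library and the results come from no test. Over 20 values and 80 alternatives, 29 of the 58 alternatives for shares stayed within the counting interval. Of the 22 others, 10 stayed within the tolerance, 10% for height and width ratios and 1.5 times for baselines. No height or width ratio fell below 1. Requiring at least 50% overlap of the shorter peak gave 14.2% (S) and 14.4% (G2/M) shared, edges within 5 kb gave 35.7% and 36.8%, the upper 50% of each list by score gave 22.3% and 22.8% within 1 kb, and peaks of at least 150 bp gave 18.4% shared in G2/M. Counting partners within 1 kb as shared gave H3K27ac at 24.4% (S) and 32.2% (G2/M) of shared peaks, H3K4me3 within 2.5 kb at 13.7% of shared G2/M peaks, and width ratios of 1.24 and 1.34; single-phase peaks are the same by construction. H3K27ac within 1 kb gave 39.6% and 50.3% of shared and 17.1% and 24.5% of single-phase peaks, and equal H3K27ac lists gave 30.8% of shared and 10.1% of single-phase G2/M peaks. H3K4me3 of any phase within 2.5 kb gave 18.8% and 19.4% of shared and 19.2% and 14.3% of single-phase peaks, a limit of 1 kb gave 8.98%, 11.2%, 9.58% and 7.12%, and removal of H3K27me3 places 10.0%, 11.9%, 13.7% and 11.4%. Chosen after seeing the data, removal of chromosomes 16, 17, 19, 20 and 22 gave 13.8% for S-only peaks. The cause of these moves was not tested. Without replicates, no difference between phases can be separated from a difference between libraries. Depth is unknown, so a peak missing from a list may be one that was not detectable.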
